A study of Mus musculus with 8 samples.

Results

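The feedback genes of the ERK pathway were followed in RNA-seq of mouse bone marrow (BM). They are the 8 genes Dusp4, Dusp5, Dusp6, Spry1, Spry2, Spred1, Spred2 and Etv5, out of 41214 genes with a count. They were chosen by name from what is known of the pathway, with earlier results of these data known. Symbols were matched to Ensembl identifiers. Total BM was taken from 8 C57Bl6 mice in 4 groups of 2 mice, none of them wild type. Young KD mice were 39 and 42 days old and sick KD mice 187 and 78 days old. In KD mice a human GFI1 cDNA replaces Gfi1 and a floxed neo cassette in the opposite direction keeps its expression low. Young KO mice, 48 and 44 days old, and old KO mice, 158 and 101 days old, lack Gfi1. The labels call sick KD mice leukemic (AML) and the other groups free of AML, whereas the study speaks of a myeloproliferative neoplasm (MPN) in sick KD mice. Gfi1 is a transcriptional repressor of blood cells.

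ERK is the last kinase of the cascade that runs from growth factor and cytokine receptors through Ras, Raf and MEK. Active ERK turns on genes whose products switch the cascade off again. Dusp4 and Dusp5 encode phosphatases that act on MAP kinases in the nucleus, Dusp5 with a preference for ERK, and Dusp6 encodes the cytoplasmic phosphatase of ERK. Spry1 and Spry2 (Sprouty) and Spred1 and Spred2 encode membrane-associated inhibitors that act above or at the step from Ras to Raf, and Spred1 brings the Ras-inactivating protein neurofibromin, the product of Nf1, to the membrane. Etv5 is an ETS transcription factor that is transcribed in response to ERK activity. In blood cells the same cascade carries signals of receptors such as Kit, Flt3 and the B-cell receptor.

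The promoter sequences of Dusp5, Dusp6 and Spred1 are shown because these 3 inhibitors had the highest levels per length of exon in young KD mice and because in sick KD mice the first fell, the last rose and Dusp6 did not pass the test. They were taken from RefSeq on GRCm38.p6 and cover 150 to 41 bases before the RefSeq start, on the plus strand, which is the coding strand of the 3 genes. The windows are chr19:53528995-53529104 for Dusp5, chr10:99263081-99263190 for Dusp6 and chr2:117120921-117121030 for Spred1. Capitals mark the CArG box, the sequence bound by serum response factor, and the core GGAA of ETS factors on either strand (TTCC on the strand shown).
Dusp5: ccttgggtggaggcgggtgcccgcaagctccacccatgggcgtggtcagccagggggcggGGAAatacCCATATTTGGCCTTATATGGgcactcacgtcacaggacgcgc
Dusp6: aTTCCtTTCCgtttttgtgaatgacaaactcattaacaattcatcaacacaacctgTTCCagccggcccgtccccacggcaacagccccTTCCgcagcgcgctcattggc
Spred1: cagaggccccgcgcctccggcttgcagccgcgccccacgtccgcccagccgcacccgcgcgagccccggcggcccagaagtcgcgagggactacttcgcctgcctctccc

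The Dusp5 window held 2 adjacent CArG boxes, which begin 82 and 72 bases before the start, and 1 GGAA. The Dusp6 window held 4 ETS cores and no CArG box, and the Spred1 window held neither. Over the 250 bases before the start, searched on both strands, a CArG box was present in 1.47% of 32851 mouse promoters and, among the 7 feedback genes with a promoter sequence, in that of Dusp5. The short core GGAA was present in 93.4% of all promoters and AATC, the core of the Gfi1 binding motif, in 69.0%. GGAA matched 7 times for Spred2, 6 for Dusp6, 4 for Spred1, 3 for Dusp5 and for Spry2 and 1 time for Spry1. For the Etv5 promoters it matched 0 and 4 times. The Spred1 matches lie outside the window shown. AATC matched 3 times for Spry1, once for Dusp5, Spred1, Spred2 and each of the Etv5 promoters, and not for Dusp6 or Spry2. The marked CArG boxes and ETS cores do not overlap, and a match here is a description of letters only.

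The libraries held 26642067 to 42679114 reads counted on genes. Reads that the counting assigned to no gene came to 42.04% and 38.8% of all reads with a unique alignment for sick KD mice. They came to 26.86% to 33.82% for the other 6. The tally does not tell whether they lie in introns, between genes or on the strand opposite a gene. The part of this difference in the results below was not tested. Gfi1 itself measured 6.20 and 7.01 CPM (read counts scaled to library size by TMM) in the young KD libraries, 14.2 and 14.4 in the libraries labelled young KO, 13.2 and 29.9 in those labelled old KO and 5.43 and 7.08 in sick KD. It was higher in the libraries labelled KO. The KD libraries held 136 to 249 Gfi1 counts. Whether reads of the human cDNA of the KD allele were counted on mouse Gfi1 was not tested, and the part of Gfi1 that the KO allele lacks was not resolved, so these counts do not check the labels. Nothing in the labels ties the mice of a group to separate litters, and the p-values measure the spread between these mice. Defining genes of B cells, erythroid cells, neutrophils, monocytes and macrophages were detected in all 8 libraries, as total BM should hold them.

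All 8 feedback genes were detected in every library, at levels that differed widely between genes. Per kilobase of exon, young KD marrow held 12.96 ± 2.11 CPM of Dusp6 (SD, n = 2 mice here and below), 7.72 ± 0.361 of Dusp5, 4.51 ± 0.0540 of Spred1 and 3.02 ± 0.216 of Spry2. Etv5 at 1.14 ± 0.0183 and Spred2 at 1.11 ± 0.0393 CPM per kilobase overlapped, and Spry1 at 0.536 ± 0.0911 and Dusp4 at 0.287 ± 0.123 were lowest. In sick KD marrow Dusp6 was again first at 12.78 ± 2.20, followed by Spred1 at 7.84 ± 1.002 and Spry2 at 2.63 ± 0.00868 CPM per kilobase. Dusp5 stood in place 5 at 1.32 ± 0.537, where its mice overlapped those of Spred2 at 1.45 ± 0.302. Dusp5 held place 2 in young KD and young KO and place 3 in old KO, although its young KO mice overlapped those of Spred1. Spry1 and Dusp4 were in places 7 and 8 in all 4 groups, and Spry1 overlapped Etv5 in old KO and sick KD.

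**Figure D1:**
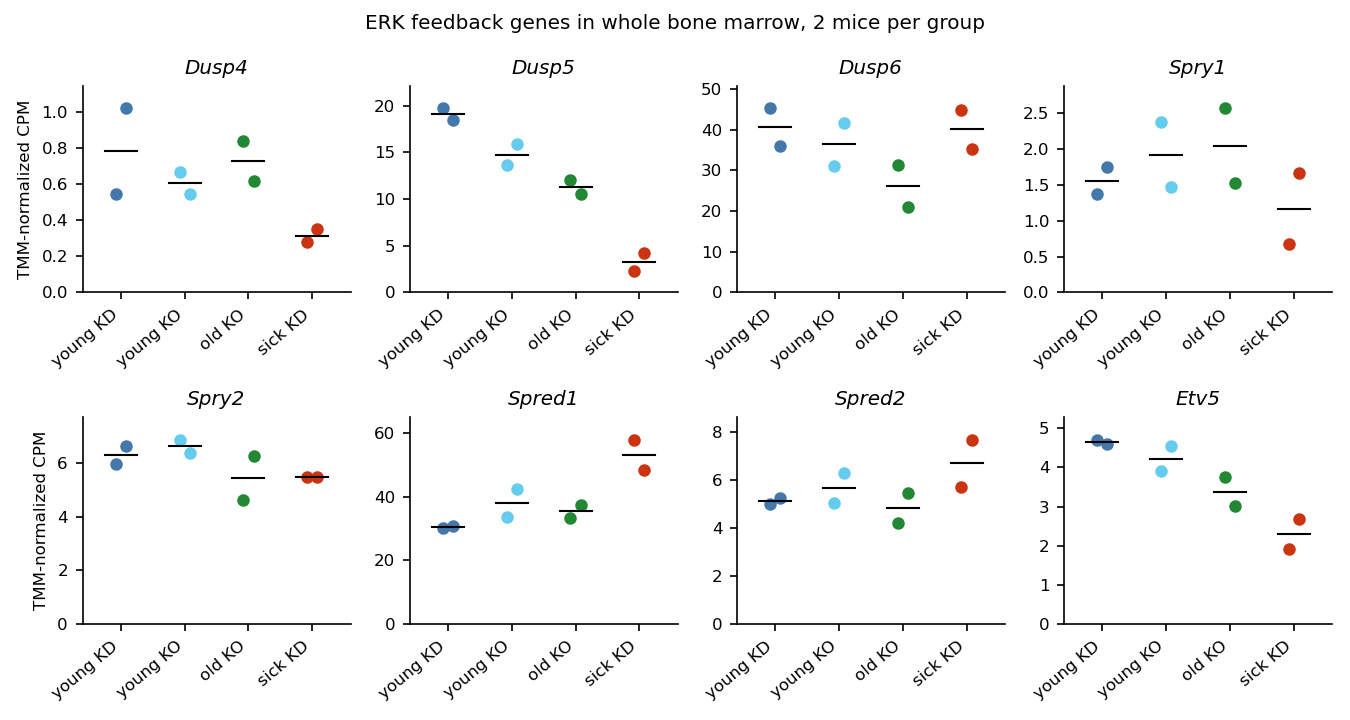
TMM-normalized CPM of each ERK feedback gene (y axis, from 0) in the 4 groups, with a point for each mouse and a line at the mean of 2 mice. Both sick KD mice lie below the other 6 for Dusp5, Etv5 and Dusp4 and above them for Spred1. Dusp4, with few counts, passed the threshold in none of the comparisons.

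The question of the first comparison was how young healthy KO marrow differs from young healthy KD marrow. None of the 8 feedback genes passed an adjusted p of 0.05 (edgeR quasi-likelihood test, Benjamini-Hochberg over 14839 genes), where 0.0404% of all genes tested did, which is 6 genes (0.0202% higher and 0.0202% lower in KO), and 394 genes had an unadjusted p under 0.05. DESeq2 called 27 genes and also none of the 8. The Dusp5 level was 19.7 and 18.5 CPM in the young KD mice and 13.6 and 15.8 CPM in the young KO mice. Both KO mice lay below both KD mice. With 2 mice against 2, such a separation alone cannot go below 0.333 in an exact permutation test. Here and below, the share of all genes so separated was not counted. The log2 fold change was -0.39 ± 0.12 (SE) at an adjusted p of 1 in edgeR (unadjusted p 0.01832, 1 of the 8 genes under 0.05). For Spred1 the young KD mice measured 30.4 and 30.9 CPM and the young KO mice 33.6 and 42.6 CPM. Again the groups did not overlap, in the other direction, at 0.30 ± 0.13 and an adjusted p of 1 in edgeR. The log2 fold changes of the other 6 genes ran from -0.36 ± 0.40 for Dusp4 to 0.30 ± 0.31 for Spry1. The 95% interval of the Dusp6 difference was -0.60 to 0.26, so these mice leave room for changes of that size.

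Sick KD marrow was compared with young KD marrow to follow the KD mice into disease, and here 3 of 8 feedback genes passed the threshold, 2 lower and 1 higher. Among all 14656 genes tested 20.9% passed, 9.45% higher and 11.4% lower, so the count of 3 is about what the whole transcriptome gives. The median log2 fold change of the 8 genes was -0.29, against 0.01 for all genes. Dusp5 fell, Etv5 fell and Spred1 rose, so inhibitors of the same cascade changed in opposite directions. Age and disease differ together between the groups and cannot be told apart in this comparison. In bulk marrow, fewer cells of a type and less RNA per cell cannot be told apart.

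Dusp5, the nuclear ERK phosphatase, measured 19.7 and 18.5 CPM in young KD and 2.32 and 4.19 CPM in sick KD mice. Both sick mice were far below both young mice, from 792 and 614 counts down to 58 and 119. The fall was 5.80-fold, a log2 fold change of -2.53 ± 0.28 (95% interval -3.20 to -1.87, edgeR adjusted p = 0.005256). Dusp5 lies at chr19:53529109-53542431 on GRCm38 (ENSMUSG00000034765), and a transcript on the opposite strand overlaps it in the annotation but has no row in the count tables. With each mouse left out in turn the log2 fold change ran from -3.03 to -2.18. Such a fit leaves a lone mouse in a group and takes its spread from the other group.

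Spred1, at chr2:117121374-117182279 (ENSMUSG00000027351), measured 30.4 and 30.9 CPM in young KD and 58.0 and 48.4 CPM in sick KD mice. Both sick mice were above all 6 other mice, and the rise was 1.75-fold, a log2 fold change of 0.81 ± 0.13 (edgeR adjusted p = 0.01234). With each mouse left out the log2 fold change stayed between 0.67 and 0.94. Etv5, at chr16:22381309-22439719 (ENSMUSG00000013089), measured 4.71 and 4.60 CPM in young KD and 1.92 and 2.68 CPM in sick KD mice. The sick mice were again apart from the young ones, 2.01-fold lower (-1.01 ± 0.26, edgeR adjusted p = 0.04052). This last call was lost without the older sick KD mouse (adjusted p = 0.1035) and without either young KD mouse (adjusted p = 0.1153 and 0.0649), while its log2 fold change stayed between -1.27 and -0.79.

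The other 5 genes did not pass the threshold in this comparison. Dusp4, the other nuclear phosphatase (ENSMUSG00000031530, chr8:34807297-34819894), was measured from only 22 and 34 counts in young KD and 7 and 10 in sick KD. Its levels of 0.548 and 1.02 CPM against 0.280 and 0.352 CPM did not overlap, but the log2 fold change of -1.27 had an SE of 0.47 and an adjusted p of 0.1017 in edgeR, which was 0.04599 when no filter on low counts was used. Dusp6 (ENSMUSG00000019960, chr10:99263231-99267489) measured 45.3 and 35.9 CPM in young KD and 44.9 and 35.2 CPM in sick KD mice. The groups overlapped almost entirely, and the 95% interval of the log2 fold change was -0.42 to 0.40 around -0.01.

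Spry1 (ENSMUSG00000037211, chr3:37639947-37644598) measured 1.37 and 1.75 CPM in young KD and 0.679 and 1.66 CPM in sick KD mice, with one sick mouse low and the other within the young range. Spry2 (ENSMUSG00000022114, chr14:105891947-105896819) measured 5.98 and 6.62 CPM in young KD and 5.47 and 5.50 CPM in sick KD mice, a log2 fold change of -0.19 with a 95% interval of -0.66 to 0.28. Spred2 (ENSMUSG00000045671, chr11:19924375-20024026) measured 5.01 and 5.26 CPM in young KD and 5.71 and 7.68 CPM in sick KD mice. Its mice lay on the same side as those of Spred1, at 0.39 ± 0.22 with an adjusted p of 0.2486 in edgeR.

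**Figure D2:**
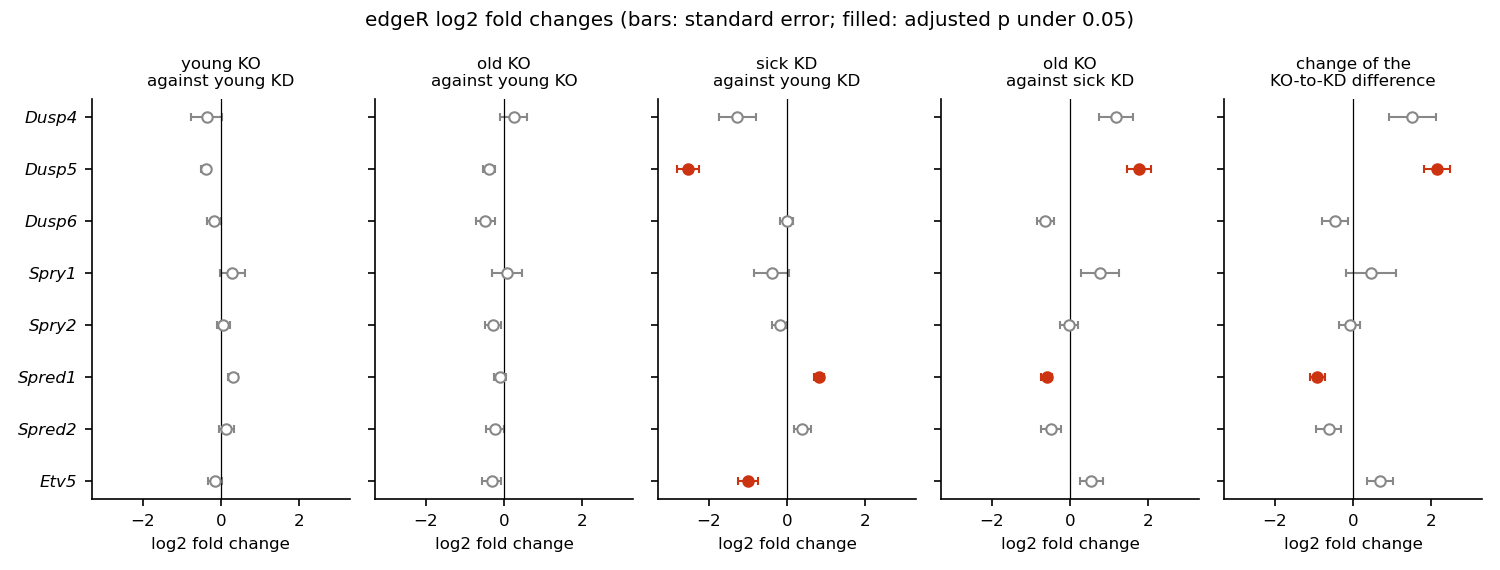
Log2 fold changes of the 8 genes (x axis) in the 4 comparisons and in the interaction test, with bars of 1 standard error and filled points at an adjusted p under 0.05. The filled points are Dusp5, Spred1 and Etv5 in sick KD against young KD, and Dusp5 and Spred1 in old KO against sick KD and in the last panel.

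Ratios of counts within a library do not depend on how libraries are scaled. For each Dusp6 read the young KD libraries held 0.436 and 0.514 Dusp5 reads, the young KO libraries 0.438 and 0.381, the old KO libraries 0.385 and 0.504 and the sick KD libraries 0.0516 and 0.119. The 2 sick KD libraries were thus apart from the other 6, whose range was narrow. The ratio of Spred1 to Spred2 was 10.2 and 6.30 in sick KD and ran from 5.86 to 7.89 in the other 6 libraries, which overlapped. The ratio of Spry1 to Spry2 spread from 0.124 to 0.301 in sick KD and from 0.229 to 0.553 elsewhere, and these ranges overlapped too.

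**Figure D3:**
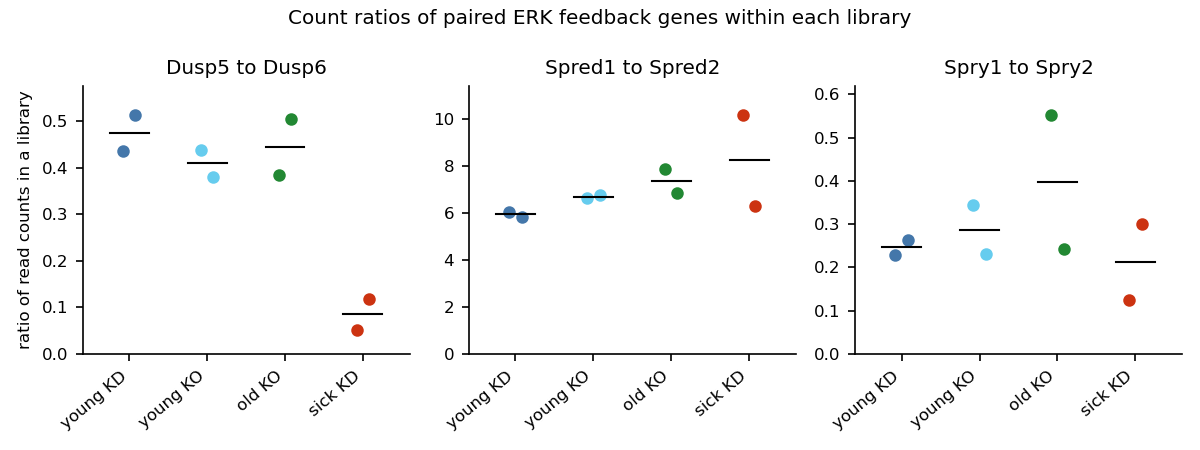
Ratio of read counts (y axis, from 0) of Dusp5 to Dusp6, Spred1 to Spred2 and Spry1 to Spry2 within each library, with a point for each mouse and a line at the group mean. Only the ratio of Dusp5 to Dusp6 sets both sick KD libraries, at 0.0516 and 0.119, apart from the other 6.

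Old KO marrow was compared with sick KD marrow because the study set KO mice of similar age, without the disease, beside the sick KD mice. The sick KD libraries are the same ones as above, so the values are given side by side and are not a second observation. Of the 8 feedback genes 2 passed the threshold, Dusp5 higher and Spred1 lower in old KO, where 18.1% of 14470 genes tested passed, 9.93% higher and 8.22% lower. Dusp5 measured 12.05 and 10.5 CPM in old KO against 2.32 and 4.19 CPM in sick KD mice. The groups did not overlap, and the level was 3.42-fold higher in old KO (log2 fold change 1.77 ± 0.31, edgeR adjusted p = 0.01306, 1.42 to 2.27 with a mouse left out).

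Spred1 measured 33.3 and 37.5 CPM in old KO against 58.0 and 48.4 CPM in sick KD, 1.52-fold lower (-0.60 ± 0.14, edgeR adjusted p = 0.02776). The call was lost without the older sick KD mouse (adjusted p = 0.08672) or without the older of the old KO mice (adjusted p = 0.1217). Dusp6 measured 31.3 and 20.9 CPM in old KO, below both sick KD mice at 44.9 and 35.2 CPM. Its log2 fold change of -0.63 ± 0.22 had an adjusted p of 0.08817 in edgeR and 0.04369 in DESeq2. With a mouse left out it ran from -0.95 to -0.37.

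Etv5 measured 3.76 and 3.01 CPM in old KO, above both sick KD mice, but its log2 fold change of 0.54 ± 0.29 did not pass (adjusted p = 0.2335, edgeR). Dusp4 measured 0.843 and 0.617 CPM in old KO from 24 counts in each mouse, likewise above both sick KD mice (log2 difference 1.17 ± 0.44, adjusted p = 0.1061 in edgeR). The old KO levels were 2.56 and 1.52 CPM of Spry1, 4.64 and 6.25 CPM of Spry2 and 4.22 and 5.48 CPM of Spred2. Spry1 and Spry2 overlapped with sick KD, whereas the Spred2 mice lay below, at -0.48 ± 0.26 with an adjusted p of 0.2283 in edgeR.

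Old KO and young KO marrow differ in age without disease, and none of the 8 feedback genes passed the threshold between them, where 0.929% of 14847 genes passed (0.323% higher and 0.606% lower) and 1315 had an unadjusted p under 0.05. DESeq2 called 383 genes and none of the 8. Dusp5 was 12.05 and 10.5 CPM in old KO and 13.6 and 15.8 CPM in young KO mice. The old mice were lower, by a log2 fold change of -0.38 ± 0.15 with an adjusted p of 0.5625 in edgeR. Spred1, at 33.3 and 37.5 CPM in old KO and 33.6 and 42.6 CPM in young KO mice, overlapped (-0.10 ± 0.15). Dusp6 was 31.1 and 41.5 CPM in young KO, with overlapping mice and a log2 fold change of -0.48 ± 0.23. Young KO mice held 3.91 and 4.54 CPM of Etv5, 0.666 and 0.548 CPM of Dusp4, 2.37 and 1.46 CPM of Spry1, 6.87 and 6.37 CPM of Spry2 and 5.05 and 6.30 CPM of Spred2. Etv5 and Spry2 were lower in the old KO mice, by log2 fold changes of -0.32 ± 0.23 and -0.28 ± 0.21 that did not pass, and the other 3 overlapped.

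Whether the KO-to-KD difference itself changed from young to old or sick mice was tested in all 8 mice as an interaction. It did so for 2 of the 8 genes, where 7.43% of 15102 genes tested passed, 4.32% higher and 3.11% lower. The Dusp5 difference changed by 2.15 ± 0.34 on the log2 scale (edgeR adjusted p = 0.01604) and the Spred1 difference by -0.91 ± 0.20 (edgeR adjusted p = 0.03839). The Dusp5 call was lost without either young KO mouse (adjusted p = 0.06657 and 0.05775) and without the younger of the young KD mice (0.06169), with values from 1.79 to 2.63. The Spred1 call was lost without any one of 7 mice and held only without the younger sick KD mouse (adjusted p = 0.0307), with values from -1.08 to -0.72. For Dusp4 the change was 1.52 ± 0.59 (edgeR adjusted p = 0.1429), for Etv5 0.68 ± 0.34 (0.229) and for Spred2 -0.62 ± 0.32 (0.2502).

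Markers of other cells moved with the groups. Beside the counts below, 20.9% of all genes tested passed in sick KD against young KD. The share was 18.1% in old KO against sick KD and 0.929% in old KO against young KO. In sick KD against young KD all 8 B-cell markers passed lower, and their summed level was 35.5 to 86.3 CPM in sick KD, 120 to 193 CPM in old KO, 600 to 817 CPM in young KO and 719 to 945 CPM in young KD. No B-cell marker was at 0 in any library. Between old and young KO mice 7 of 8 B-cell markers also passed lower. Dusp5 was lower in both old KO mice too, by -0.38 ± 0.15 on the log2 scale, and did not pass. As a share of the young KD mean, Dusp5 stood at 63.1% and 55.2% in old KO while the summed B-cell markers stood at 14.4% and 23.2%. In sick KD the shares were 12.1% and 21.9% for Dusp5 and 4.27% and 10.4% for the B-cell markers. Old KO exceeded sick KD in 2 of 8 B-cell markers past the threshold. Among T- and NK-cell markers 2 of 7 passed lower in sick KD against young KD, at summed levels of 72.9 to 76.8 CPM in sick KD and 77.7 to 89.9 CPM in young KD.

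All 7 erythroid markers passed lower in sick KD against young KD and higher in old KO against sick KD, with sums of 635 to 973 CPM in sick KD and 1456 to 4662 CPM in the other 6 libraries. Eosinophil, basophil and mast cell markers summed to 342 to 391 CPM in sick KD, 447 to 459 CPM in young KD, 542 to 543 CPM in young KO and 703 to 1151 CPM in old KO. Of 7 macrophage markers 5 passed lower in sick KD against young KD, and of 8 markers of stroma and endothelium 5 did. Neutrophil granule markers summed to 8189 to 10030 CPM in sick KD and 4608 to 6079 CPM elsewhere, 4 of 11 passing higher in sick KD against young KD. Ltf, Camp, Ngp, Mmp9, S100a8 and S100a9 overlapped between these 2 groups. S100a8, a large part of the sum, was uneven between the sick KD mice, at 2117 and 639.5 CPM, and so was S100a9, at 1099 and 282.1 CPM. Monocyte markers summed to 9570 to 10060 CPM in sick KD and 6520 to 8841 CPM elsewhere, with 2 of 7 passing higher and 1 lower in sick KD against young KD. For stem and progenitor markers 1 of 8 passed higher and 1 lower there, and none of 6 megakaryocyte markers passed. Against young KD, Dusp5 and Etv5 fell in the same sick KD mice as the B-cell and erythroid lists. Markers of T and NK cells, macrophages, and stroma and endothelium that passed there were also lower. Spred1 rose in the mice in which the neutrophil granule and monocyte sums were highest. The part of cell composition in the changes of these 3 genes was not tested.

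**Figure D4:**
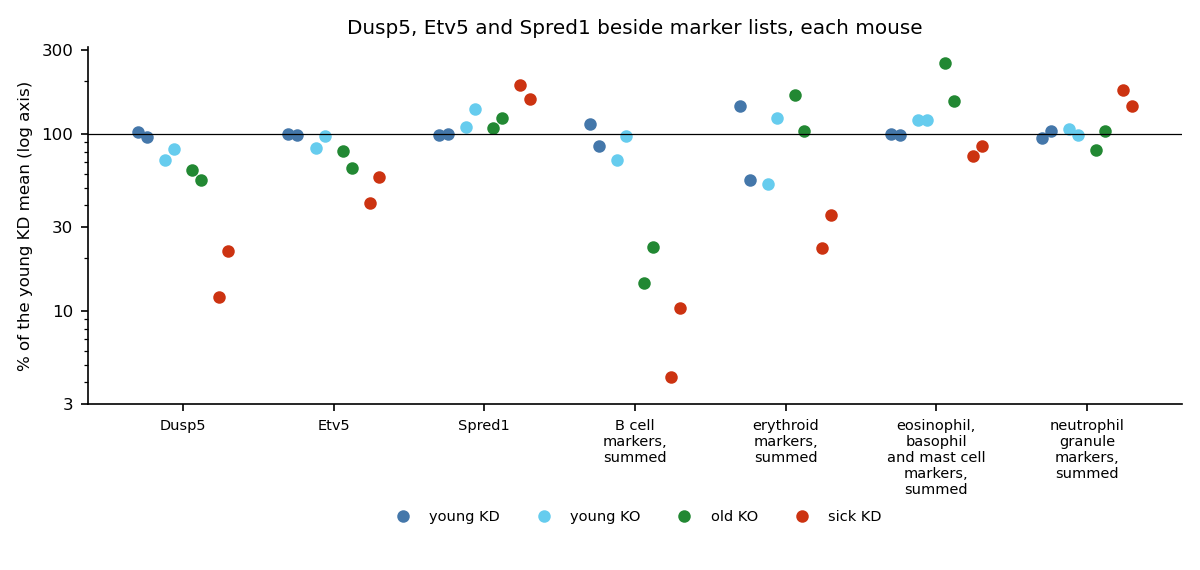
Levels of Dusp5, Etv5 and Spred1 and summed levels of 4 marker lists in each mouse, as a percentage of the young KD mean on a log axis, with the line at 100. In old KO mice the B-cell markers lie at 14.4% and 23.2% and Dusp5 at 63.1% and 55.2%.

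The rest of the pathway was read from lists of named genes. Among all genes tested 20.9% passed in sick KD against young KD, 18.1% in old KO against sick KD and 0.929% in old KO against young KO. Among the other MAP kinase phosphatases 2 of 7 passed lower and none higher in sick KD against young KD. Dusp2, a nuclear phosphatase of activated lymphocytes and myeloid cells, measured 40.6 and 31.4 CPM in young KD and 6.43 and 13.7 CPM in sick KD (-1.82 ± 0.33). It was also lower in old KO than in young KO, at 10.7 and 11.9 against 26.1 and 32.2 CPM, and was the only gene of the pathway lists to pass in that comparison. Dusp10, which acts mainly on the stress kinases p38 and JNK, measured 10.8 and 10.6 CPM in young KD and 4.75 and 5.36 CPM in sick KD (-1.07 ± 0.18). Dusp8 passed in old KO against sick KD, 2.18 ± 0.51 higher on the log2 scale. It rested on few counts, 151 and 98 in old KO and 13 and 33 in sick KD. Dusp1, an immediate early phosphatase, ranged from 14.7 to 88.3 CPM within the young KD group alone.

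Of the other Sprouty, Spred and membrane-level inhibitors 6 of 9 were tested in the comparisons with sick KD, and 1 passed. Nf1 measured 101 and 78.9 CPM in sick KD against 46.1 and 57.6 CPM in young KD and 44.5 and 47.9 CPM in old KO, and the sick KD mice were above all 6 others. The log2 fold change was 0.81 ± 0.17 in sick KD against young KD and -0.98 ± 0.15 in old KO against sick KD (edgeR adjusted p = 0.02335 and 0.008847). Nf1 and Spred1, whose products form a complex, thus both passed higher in sick KD marrow than in young KD and old KO marrow, in comparisons that share the sick KD mice. No gene of this list passed in young KO against young KD or in old KO against young KO.

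Of 11 other ERK-responsive genes 9 were tested, with a median log2 fold change of 0.003 in sick KD against young KD. Myc, the growth-promoting transcription factor, passed higher, at 31.5 and 43.9 against 21.2 and 25.1 CPM (0.71 ± 0.19). The ephrin receptor gene Epha2 passed lower, at 2.12 and 7.08 against 34.4 and 24.1 CPM (-2.65 ± 0.49). Epha4 passed in old KO against sick KD, at 14.9 and 13.4 against 5.47 and 7.40 CPM. Egr1, an early target of ERK, measured 0.918 and 1.23 CPM in sick KD and 3.21 and 1.93 CPM in young KD and did not pass.

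All 24 genes of the cascade core were tested. In sick KD against young KD 4 passed higher and 3 lower, with a median of 0.056, where 20.9% of all genes tested passed. The adaptors Grb2 (0.38 ± 0.10) and Gab2 (0.83 ± 0.10), the kinase Braf (0.75 ± 0.20) and the ERK-activated kinase gene Rps6ka3 (0.97 ± 0.17) were higher. The phosphatase gene Ptpn11 (-0.53 ± 0.10) and the Ras exchange factors Rasgrp1 (-2.66 ± 0.30) and Rasgrp3 (-1.47 ± 0.23), both used by lymphocytes, were lower. Rasgrp1 measured 28.6 and 30.9 CPM in young KD, 26.6 and 24.8 CPM in young KO, 19.6 and 14.9 CPM in old KO and 3.11 and 6.20 CPM in sick KD. As with Dusp5, both sick KD mice were far below the other 6.

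In old KO against sick KD 3 core genes passed higher (Ptpn11, Rasgrp1, Rasgrp3) and 4 lower (Sos1, Gab2, Braf, Rps6ka3), where 18.1% of all genes tested passed. Mapk3, which encodes ERK1, passed in none of the comparisons. It measured 50.4 and 62.1 CPM in sick KD and 45.6 to 56.6 CPM in the other 6 libraries, and these ranges overlapped. Among 14 receptor tyrosine kinases 3 passed higher in sick KD against young KD (Flt3, Insr, Igf1r) and 4 lower (Pdgfra, Kdr, Egfr, Axl), with a median of -0.365. In sick KD, Pdgfra rested on only 16 and 10 counts and Egfr on 5 and 6. Kdr is also in the list of stroma and endothelium, which fell. No core or receptor gene passed in young KO against young KD or in old KO against young KO.

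**Figure D5:**
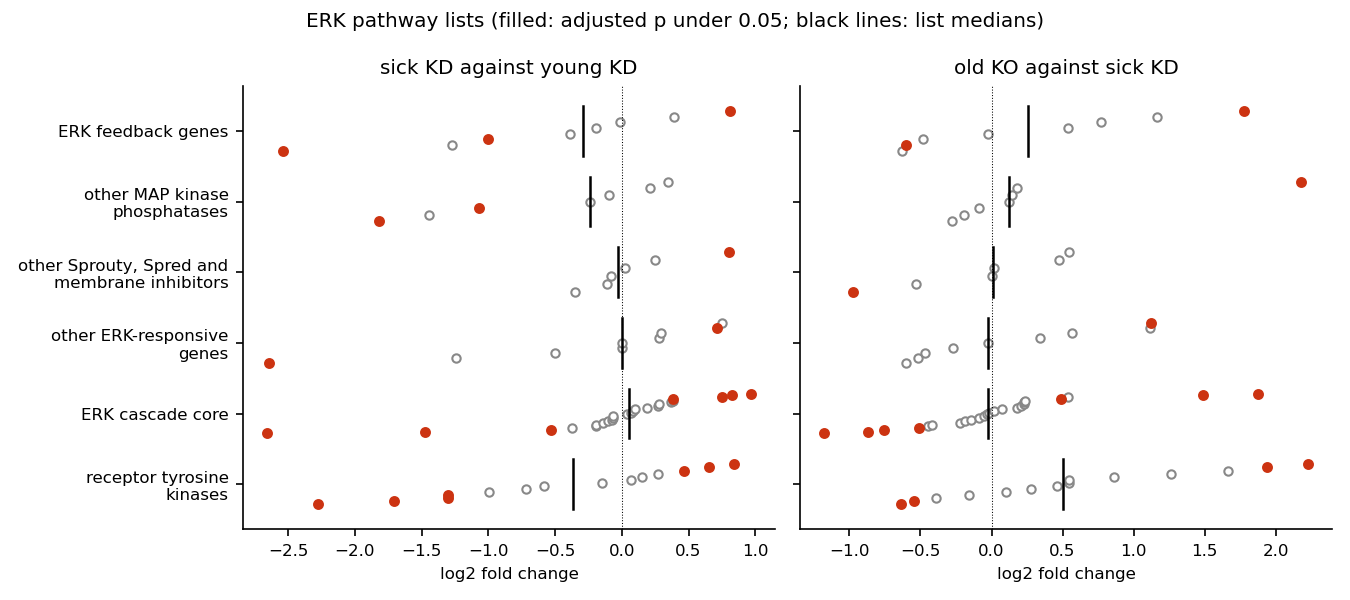
Log2 fold changes (x axis) of each gene of the ERK pathway lists in sick KD against young KD and old KO against sick KD, with filled points at an adjusted p under 0.05 and a black line at each list's median. Every list with more than 2 filled points has them on both sides of 0.

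The genes most like Dusp5, Spred1 and Etv5 were found from the root mean square difference of standardized log2 levels over the 8 libraries, among 11489 protein-coding genes. For Dusp5 these were Irf4, a transcription factor of lymphocytes, at a difference of 0.108 SD units, and Rad54l2 at 0.11. Irf4 measured 134 and 119 CPM in young KD and 91.7 and 113 CPM in young KO. In old KO it measured 65.2 and 55.0 CPM and in sick KD 14.0 and 21.7 CPM. It was picked for likeness over these same libraries, so sharing the order of groups with Dusp5 is no separate observation. For Etv5 they were Ptp4a3 at 0.104 and Phlpp1, a phosphatase gene, at 0.14. For Spred1 they were Utp20 at 0.225 and Sla at 0.231, both farther away than the neighbours of the other genes.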

How the data were processed

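RNA was extracted from total BM and made into stranded, poly(A)-selected libraries. The authors aligned reads to mm10 (GRCm38) with TopHat2 2.0.10, according to the submitters' processing notes, counted reads per Ensembl gene with HTSeq, and deposited raw counts per gene for each mouse. The strand setting of the counting and the Ensembl release are not given in the sources used here. The 5 tallies of unassigned reads were left out of library sizes and tests. Reads assigned to no gene, at 26.86% to 42.04% of the uniquely aligned reads of a library, are among them. Symbols, coordinates and exon lengths came from GENCODE M21, in which 40340 genes had a symbol.

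The test was that of edgeR 4.0.16, run in R 4.3.3, on the deposited counts (TMM, filterByExpr by group, quasi-likelihood test, two-sided, Benjamini-Hochberg over all genes tested, threshold 0.05). Each pairwise comparison was fitted in its own 4 mice and the interaction (KO-to-KD difference in old or sick mice less that in young mice) in all 8. The SE is the size of the log2 fold change over the square root of F. Levels are TMM-scaled CPM, and levels of different genes are compared per kilobase of exon. With 2 mice against 2 an exact permutation test cannot go below 0.333, so none was used. Likeness used log2(CPM + 1) and genes with a mean of at least 1 CPM. The scripts were tested on simulated data. Replicates were separate libraries (chi-square per degree of freedom 21.83 to 35.86). The labels give no batch.

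All 8 genes are named. From the other lists genes past the threshold could be named, and Dusp1, Egr1 and Mapk3 were added after their values were seen. The values of 1 gene of the lists are not reported here. The 8 genes and all lists were chosen with earlier results of these data known. Alternatives were DESeq2 1.42.0, RLE size factors, no filter beyond 1 count or at least 10 counts in every mouse, removal of the trend in GC content and length, leaving out the 50 genes with most counts, all 8 mice fitted together, and each mouse left out, which leaves a group with a lone mouse that is assumed to vary like the other groups of the fit.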

Additional observations from a re-analysis of the deposited data

Results flagged for a closer look

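The KO-to-KD difference of Dusp5 and that of Spred1 drew attention because each was not the same in the young mice as in the older or sick ones, by the interaction test across all 8 mice. For Dusp5 the old or sick difference minus the young one was 2.15 on the log2 scale (edgeR adjusted p = 0.01604), with a KO-to-KD log2 fold change of -0.39 in young mice and 1.77 in old or sick mice. For Spred1 it was -0.91 (edgeR adjusted p = 0.03839), with 0.30 in young mice and -0.60 in old or sick mice. With a mouse left out, these values ran from 1.79 to 2.63 for Dusp5 and from -1.08 to -0.72 for Spred1. Neither call held in every such fit, and that of Spred1 was lost in most of them. The cause was not tested.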

How the results depend on the processing

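No paired analysis was possible because each mouse has its own number in the labels. The numbers of genes past the threshold depended on the settings. Among the 8 genes, some calls of Dusp5, Spred1 and Etv5 were lost in fits with a mouse left out, as given above. Young KO against young KD (6 genes) gave 27 with DESeq2, 119 with no filter and 3 with all 8 mice fitted together. Old KO against sick KD (2626) gave 4325 with no filter and 4200 with all 8 mice. Old KO against young KO (138) gave 383 with DESeq2 and 796 with no filter. The interaction test (1122) gave 1951 with DESeq2, 2919 with no filter and 1900 with the GC and length trend removed. With a mouse left out these counts ranged over 2 to 8, 1221 to 2795, 17 to 307 and 106 to 1614, and over 1316 to 3401 for sick KD against young KD (3063), the lowest values arising without the older young KO, the older sick KD, the younger young KO, the younger young KD and the younger young KD mouse. Of the 8 genes, 2 to 3 then passed in sick KD against young KD, 1 to 2 in old KO against sick KD, 0 to 2 in the interaction test and 0 in the others.

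A direction turned only for genes that did not pass in that comparison. With the GC and length trend removed, Spry2 in old KO against sick KD became 0.0012, Dusp6 in sick KD against young KD 0.045 and Spred1 in old KO against young KO 0.0036. With a mouse left out the log2 fold changes in young KO against young KD ranged from -0.75 to 0.15 for Dusp4, -0.41 to 0.033 for Dusp6, -0.087 to 0.58 for Spry1, -0.013 to 0.14 for Spry2 and -0.045 to 0.30 for Spred2. They ranged from -0.25 to 0.18 for Spry2 in old KO against sick KD, from -0.20 to 0.16 for Dusp6 and -1.18 to 0.10 for Spry1 in sick KD against young KD, and from -0.35 to 0.46 for Spry1 and -0.28 to 0.094 for Spred1 in old KO against young KO. In the interaction test they ranged from -0.0225 to 1.24 for Spry1 and -0.32 to 0.10 for Spry2. The causes were not tested. Dusp4 had too few counts for the filter of 10 counts in fits with sick KD, and DESeq2 gave it no adjusted p in the interaction test. Dusp4 and Spry1, at 7 to 103 counts, are the genes that depth limits most.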
